A study of Mus musculus with 6 samples.

Results

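Mitochondrial ribosomal proteins were represented by 77 genes, out of 28312 genes with a name on the array. They were taken as every gene whose name on the array began with Mrpl (large subunit) or Mrps (small subunit) followed by a digit, and 100 of the 39429 probes carried such a name. Where a gene had more than 1 probe, its value came from the probe with the highest mean log2 signal. The values that chose that probe did not use the difference between tissues. Of the 77 genes, 75 had a probe that passed the filter on dim signals, and those 75 were well above background on all 6 arrays. RNA came from myeloid cells of C57BL/6N wild-type mice that had undergone acute myocardial infarction (AMI), taken on day 3. The infarcted left ventricle gave 3 samples, called heart 1, heart 2 and heart 4, and the spleen gave 3, called spleen 1, spleen 2 and spleen 4. Both tissues came from infarcted animals, and no sample from an animal without infarction was analysed here. Cells were gated as CD45 high and CD11b high, with low staining for B220, Thy-1.2, NK-1.1, DX5 and Ly6G, which are antigens of lymphocytes, natural killer cells and neutrophils. The labels say that the organs were analysed one by one, but not whether a heart and a spleen of the same number shared an animal. The p-values set the difference between tissues against the spread of samples within a tissue, and treat the 6 samples as independent. Each array received labelled RNA amplified once from 10 ng of total RNA.

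Mitochondria hold ribosomes of their own. The RNA of these ribosomes is encoded in mitochondrial DNA, whereas their proteins are encoded by nuclear genes, made in the cytosol and imported. Mitochondrial ribosomes translate the messages left in the mitochondrial genome, which encode core subunits of the respiratory chain and of ATP synthase. Some of their proteins have a counterpart in bacteria, and others are particular to mitochondria. Among myeloid cells, macrophages hold many mitochondria and shift between respiration and glycolysis with their activation state, whereas neutrophils rely largely on glycolysis.

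The share of probes well above background was 52.8% to 56.5% in hearts, against 55.7% to 63.6% in spleens, and no spot was saturated. Transcripts of the sorting antigens, Ptprc (CD45) and Itgam (CD11b), had a summed level of 22.1 to 23.8 in hearts and 21.1 to 28.1 in spleens, in multiples of the array's 75th percentile, and neither gene was called. Several lists of cell type markers differed between the tissues, though not all of them. The 12 neutrophil markers summed to 29.9 to 36.1 in hearts, against 518 to 1330 in spleens, and 9 of the 12 were called lower in hearts. The 10 proliferation markers summed to 14 to 14.6 in hearts, against 18 to 115 in spleens, and 7 of the 10 were called lower in hearts. Among these 7, Top2a and Cdk1 were not well above background in any heart. Tyms went the other way and was called higher (log2 fold change 1.32, limma adjusted p = 0.0337), and Pcna was not called (-0.12). The 7 macrophage markers summed to 445 to 516 in hearts, against 147 to 333 in spleens. Of these, 3 were called higher and 4 were not called, among them Lyz2 (log2 fold change 0.14). The 6 B cell markers summed to 0.761 to 1.25 in hearts and 3.35 to 99.4 in spleens, and the 6 T and NK cell markers to 2.67 to 2.89 in hearts and 4.07 to 64.1 in spleens. Of 4 tested B cell markers, 0 were called (3 at an unadjusted p under 0.05), and of 3 tested T and NK cell markers, 1 was called lower. Ebf1, Cd3g, Cd8a and Ncr1 of these lists were not well above background in any heart. The 8 erythroid markers summed to 9.17 to 44.3 in hearts and 10.1 to 191 in spleens, so the tissues overlapped. Of 5 tested erythroid markers, 0 were called (1 at an unadjusted p under 0.05), and Hba-a1 had a log2 fold change of -0.25. Klf1 and Ahsp were among those not well above background in any heart. Spleen 1 held the top value for B cell, T and NK cell and erythroid markers. The 7 fibroblast markers summed to 1.83 to 5.09 in hearts, against 0.113 to 0.171 in spleens, and all 5 that were tested were called higher. The 7 cardiomyocyte markers summed to 0.621 to 0.969 in hearts, against 0.254 to 0.454 in spleens. Of 6 tested cardiomyocyte markers, 3 were called higher and 3 were not called, among them Nppa (log2 fold change 0.24) and Tnni3 (-0.12). The part of these cells in the results below was not tested. In such bulk samples, fewer cells of a type and less RNA per cell cannot be told apart.

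RefSeq promoter windows (assembly GRCm38.p6), which run from 250 bases before to 50 bases after a gene's start, were matched for 67 of the 77 genes, by 73 windows. A set of 4 motifs, of factors known to act on nuclear genes for mitochondrial proteins or on ribosomal protein genes, was searched as plain letters on both strands. They were GCGC, N and TGCGC in a row for NRF1, CCGGAAG for ETS factors such as GABPA, CACGTG for the E-box and AAGATGGC for YY1, and matches of different motifs overlapped in 0 of the 73 windows. The ETS letters stood in 32.9% of the windows of mitochondrial ribosomal protein genes, in 16.1% of the windows of all tested genes and in 8.86% of all windows. The YY1 letters stood in 16.4%, 4.19% and 2.75% of the same 3 sets, and the NRF1 letters in 16.4%, 8.94% and 4.6%. The E-box letters stood in 9.59% of the windows of mitochondrial ribosomal protein genes and in 9.59% of those of all tested genes. These shares describe letters, not occupied sites. The stretches of 150 bases before the start are printed for Mrpl44, the gene with the largest fall below, and Mrpl52, the gene with the largest rise, since a match lay in that stretch for each. Both are given on the plus strand (chr1:79775868-79776017 for Mrpl44, chr14:54426759-54426908 for Mrpl52). Capitals mark the match, which is of the NRF1 letters in Mrpl44 and of the ETS letters in Mrpl52, and in each case the letters read on the opposite strand.
Mrpl44: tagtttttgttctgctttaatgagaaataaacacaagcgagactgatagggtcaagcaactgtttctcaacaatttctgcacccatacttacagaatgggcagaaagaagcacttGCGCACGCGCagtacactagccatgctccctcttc
Mrpl52: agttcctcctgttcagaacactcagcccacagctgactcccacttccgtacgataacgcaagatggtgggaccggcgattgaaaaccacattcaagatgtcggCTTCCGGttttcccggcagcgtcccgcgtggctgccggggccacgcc

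The NRF1 match of Mrpl44 began 35 bases before the start, and the ETS match of Mrpl52 began 47 bases before it. Mrpl52 had another ETS match from base 3 after the start. Of the other genes called below, Mrps28 and Mrps35 had no matched window and were not searched. Mrps18b had an ETS match from base 44 and Mrpl49 a YY1 match from base 17 after the start. Thus each of the 4 called genes with a window held a match of at least 1 motif, and so did 61.6% of all windows of mitochondrial ribosomal protein genes.

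The question was how RNA levels for mitochondrial ribosomal proteins in myeloid cells of the infarcted ventricle compared with those in the spleen. Few genes of the family passed the test in either direction, and most fold changes were small. Mrpl52, Mrps28 and Mrps18b were higher in hearts, and Mrpl44, Mrpl49 and Mrps35 were lower, each by a log2 fold change between 0.71 and 1.09 in size. Levels are given as log2 of the processed signal minus the 75th percentile of the same array, and each fold change is the log2 value of heart minus spleen, followed by its standard error (SE) from limma. A gene was called where its p, adjusted by Benjamini and Hochberg's method over the 16365 genes tested, was under 0.05. With that threshold, 3 of the 75 tested family genes rose in hearts (4%), against a background of 9.04% of all tested genes, and 3 fell (4%), against 6.46%. Together 8% of the family was called, against 15.5% of all tested genes.

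**Figure D1:**
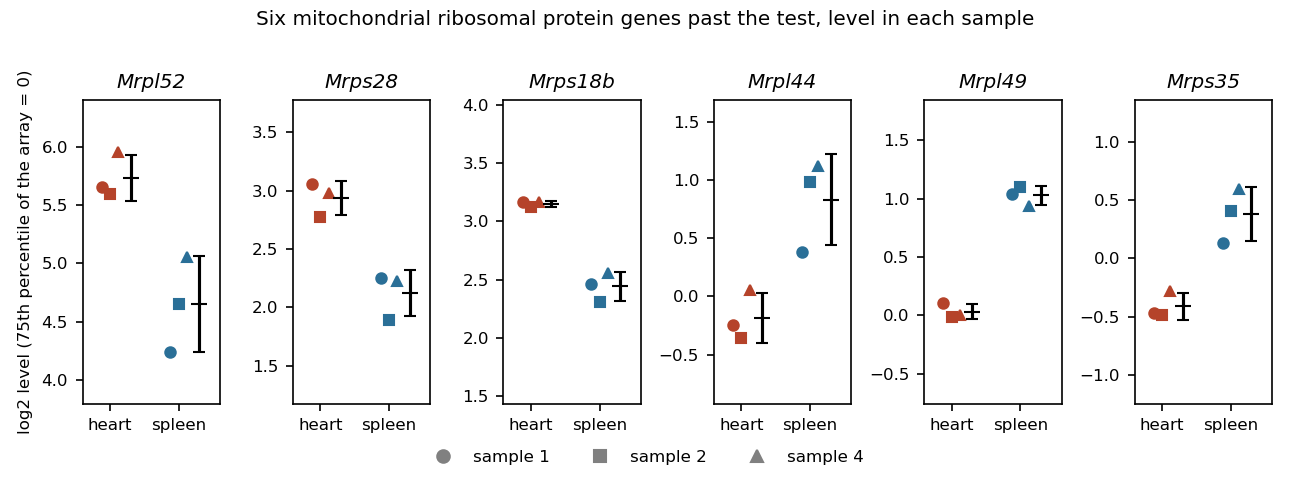
Log2 level (75th percentile of the array = 0) of the 6 called genes in each of the 3 heart samples (left, red) and 3 spleen samples (right, blue), with the mean and SD as black bars and the sample number as the marker shape; each panel has its own range of equal height. No heart value overlaps a spleen value in any panel, and Mrpl52, Mrps28 and Mrps18b lie higher in hearts, Mrpl44, Mrpl49 and Mrps35 lower.

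Mrpl52, a large subunit protein particular to mitochondria, had levels of 5.655, 5.59 and 5.96 in hearts 1, 2 and 4, against 4.24, 4.65 and 5.06 in spleens 1, 2 and 4. Every heart was above every spleen, and spleen 1 was the lowest. The log2 fold change was 1.085 ± 0.26 (SE, n = 3 each, limma adjusted p = 0.0364). Its probe lies at chr14:55048507-55048566 of the mouse build mm9.

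Mrps28, a small subunit protein, had levels of 3.06, 2.77 and 2.98 in hearts 1, 2 and 4, against 2.25, 1.89 and 2.23 in spleens 1, 2 and 4. The tissues did not overlap, and sample 2 was the lowest in each tissue. Its log2 fold change was 0.82 ± 0.19 (SE, n = 3 each, limma adjusted p = 0.0343), from a probe at chr3:8802222-8802281 (mm9). Mrps18b is a variant of the ribosomal protein S18 family in the small subunit, with a probe at chr17:36047331-36047390 (mm9). It had levels of 3.17, 3.12 and 3.16 in hearts 1, 2 and 4, against 2.46, 2.31 and 2.56 in spleens 1, 2 and 4. The hearts lay within a narrow range above all spleens, and the log2 fold change was 0.71 ± 0.16 (SE, n = 3 each, limma adjusted p = 0.0334).

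Mrpl44, a large subunit protein with a domain of the RNase III type and a cause of cardiomyopathy in humans when mutated, had levels of -0.25, -0.36 and 0.06 in hearts 1, 2 and 4, against 0.38, 0.98 and 1.12 in spleens 1, 2 and 4. All hearts were below all spleens, with spleen 1 nearest to them. The log2 fold change was -1.01 ± 0.25 (SE, n = 3 each, limma adjusted p = 0.0427), from a probe at chr1:79777892-79777951 (mm9).

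Mrpl49, a large subunit protein particular to mitochondria, had levels of 0.11, -0.02 and 0.005 in hearts 1, 2 and 4, against 1.045, 1.10 and 0.94 in spleens 1, 2 and 4. The samples of each tissue lay close together and the tissues were far apart, and its log2 fold change of -0.996 ± 0.16 had the lowest p of the family (SE, n = 3 each, limma adjusted p = 0.0131, probe at chr19:6053882-6053941 in mm9). Mrps35, a small subunit protein particular to mitochondria, had levels of -0.47, -0.48 and -0.28 in hearts 1, 2 and 4, against 0.13, 0.41 and 0.59 in spleens 1, 2 and 4. The tissues did not overlap, and the log2 fold change was -0.79 ± 0.19 (SE, n = 3 each, limma adjusted p = 0.0386).

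These 6 calls depended on all 3 hearts, on the scaling, on the filter and on the block. The fit took 1 variance per gene over both tissues, although spleens spread more than hearts (described below). The part of this in the loss of calls was not tested. With any 1 heart left out, 0 of the 75 genes were called (at an unadjusted p under 0.05, 6, 9 and 6 genes without hearts 1, 2 and 4, and 10 of 75 with all arrays, against 32% of all tested genes), and the same fits called 433, 460 and 498 of all tested genes. Without spleen 2, Mrpl49 alone was called (1.33%, against 11.7% of all tested genes). Without spleen 1, Mrps6 joined the 6 (9.33%, against 16.7% of all tested genes). Without spleen 4, 8 genes were called higher (with Mrpl54, Mrpl17, Mrps18a, Mrps10 and Mrps7) and Mrpl49 and Mrps35 lower. Together these were 13.3% of the family, against 24.6% of all tested genes. With the median of each array in place of the 75th percentile, 0 of the 75 were called (8 at an unadjusted p under 0.05), against 12.4% of all tested genes. With the replicate number as a block, 0 were called (9 at an unadjusted p under 0.05), against 9.24%. With the slide as a fixed block, 0 were called (4 at an unadjusted p under 0.05), against 0.562% of all tested genes. With no filter on dim probes, or with the arrays of the earlier title date alone, Mrpl49 was the only one called (against 5.22% and 10.5% of all tested genes). With the slide as a random block, the same 6 were called (8%, against 15.3% of all tested genes). With quantile scaling or the deposited values, Mrps28 and Mrps18b lost their calls, and Mrps26 was called lower. All 6 genes kept their sign in all 21 alternative fits. Slide 1 held only spleens 1 and 2, and slide 3 only hearts 2 and 4, so slide and tissue cannot be told apart there. Heart 1 and spleen 4 shared slide 2, and the fit with a fixed slide block drew the tissue difference from that pair alone. In that pair the log2 difference, heart minus spleen, was 0.60 for Mrpl52, -1.37 for Mrpl44 and -0.83 for Mrpl49.

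Among the 69 genes not called, several stood near the threshold. Mrpl17 had levels of 2.68, 2.45 and 2.71 in hearts 1, 2 and 4, against 1.33, 1.90 and 2.15 in spleens 1, 2 and 4, with a log2 fold change of 0.82 ± 0.25 (SE, limma adjusted p = 0.0772). Mrpl54 had a log2 fold change of 0.83 ± 0.28 (SE, limma adjusted p = 0.1), and its tissues did not overlap either. Mrps6 had a log2 fold change of 0.825 (limma adjusted p = 0.121), and its tissues overlapped, since spleen 1 stood at 0.80 between hearts at 0.79 and 1.03. Mrps26 had a log2 fold change of -0.43 (limma adjusted p = 0.161) and was called lower when arrays were scaled by quantiles. These 4 genes were chosen after their values were seen. Across the family, the tissues did not overlap in 21 of 75 genes (28%), against 41% of all tested genes. Values without overlap were higher in hearts in 15 of the 75 genes, against 4021 of the 16365 tested genes (24.6%). They were lower in hearts in 6 of the 75, against 2691 of the 16365 (16.4%).

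**Figure D2:**
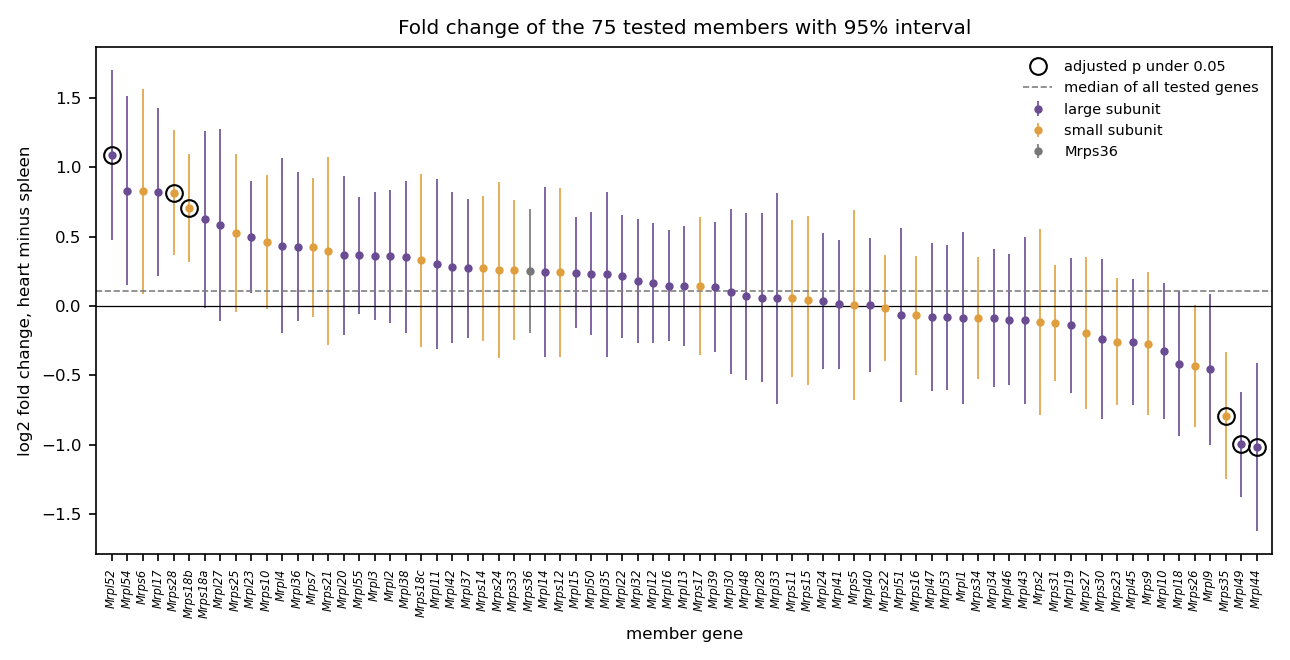
Log2 fold change, heart minus spleen, of the 75 tested mitochondrial ribosomal protein genes (points, coloured by subunit) with the 95% interval of the limma fit (lines), ordered by size; circles mark an adjusted p under 0.05 and the dashed line the median of all tested genes, 0.105. Fold changes run from 1.085 for Mrpl52 to -1.01 for Mrpl44, and 65 of the 75 intervals include 0.

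The fold changes of the family were small and centred near those of all genes. Their median was 0.144, against 0.105 for all tested genes, and 50 of 75 were above 0 (66.7%, against 58.4% of all tested genes). Measured against the median of all genes, 40 of 75 were above it. The sign of the family's median depended on the scaling: it was -0.065 with quantile scaling, with 24 of 75 genes above the median of all genes. Only Mrpl52 and Mrpl44 changed by a log2 fold change of at least 1 in size in this fit, 2 of 75, against 19.8% of all tested genes. In 60 of 75 genes (80%) the 95% interval lay within a 2-fold difference in either direction, against 44.6% of all tested genes.

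Split by position in the ribosome, the 48 large subunit genes had a median log2 fold change of 0.145. Mrpl52 was called higher (2.08%, against 9.04% of all tested genes), and Mrpl44 and Mrpl49 were called lower (4.17%, against 6.46%). The 26 small subunit genes had a median of 0.10, with Mrps28 and Mrps18b called higher (7.69%) and Mrps35 called lower (3.85%). A split by origin used classes assigned here by gene name, which were not checked gene by gene. The 44 genes classed as having a bacterial counterpart had a median of 0.197, with 34 above 0 (77.3%, against 58.4% of all tested genes). Of these 44, 1 was called higher (Mrps28, 2.27%, against 9.04% of all tested genes) and 0 lower (against 6.46%). The 30 genes classed as particular to mitochondria had a median of -0.003, with 15 above 0 (50%, against 58.4%). Of these 30, 5 were called, 2 higher (6.67%, against 9.04%) and 3 lower (10%, against 6.46%). With quantile scaling the medians of these 2 classes were -0.03 and -0.17. The difference between the classes was not tested.

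The stalk of the large subunit, which recruits translation factors, held Mrpl10, Mrpl11 and Mrpl12, and none was called. Mrpl12, which also binds the mitochondrial RNA polymerase, had levels of 2.71, 2.60 and 2.77 in hearts 1, 2 and 4, against 2.53, 2.32 and 2.73 in spleens 1, 2 and 4. Its tissues overlapped, and its log2 fold change was 0.17 with a 95% interval from -0.26 to 0.60. Mrpl11 had a log2 fold change of 0.305 (interval from -0.31 to 0.92), and Mrpl10 one of -0.32 (interval from -0.81 to 0.16).

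At the exit of the tunnel for the growing chain, Mrpl23 had levels of 4.25, 4.16 and 4.44 in hearts 1, 2 and 4, against 3.71, 3.77 and 3.88 in spleens 1, 2 and 4. Its tissues did not overlap, but its log2 fold change of 0.50 missed the threshold (limma adjusted p = 0.0981). Its neighbour Mrpl24 had a log2 fold change of 0.03, and Mrpl45, which ties the ribosome to the inner membrane, had one of -0.26. The tissues of both overlapped.

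Other large subunit proteins with a known role were also not called. Mrpl3, mutated in a human cardiomyopathy, had levels of 2.63, 2.47 and 2.49 in hearts 1, 2 and 4, against 2.17, 1.92 and 2.42 in spleens 1, 2 and 4. The tissues did not overlap, by a small margin to spleen 4, and the log2 fold change was 0.36 (limma adjusted p = 0.253). Mrpl32, whose maturation by the m-AAA protease precedes ribosome assembly, had a log2 fold change of 0.18, and Mrpl40, a gene of the region deleted in the human 22q11 syndrome, had one of 0.007. Mrpl41 had one of 0.012, and its other probe is described below. Mrps30, which sits in the large subunit of mammals despite its name, had a log2 fold change of -0.24, with spleen 4 at 2.21 above the other 5 samples, which lay between 1.40 and 1.56.

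In the small subunit, Mrps12, the counterpart of the bacterial decoding protein S12, had levels of 3.31, 3.07 and 3.22 in hearts 1, 2 and 4, against 2.51, 2.98 and 3.37 in spleens 1, 2 and 4. The highest and the lowest of these values were both spleens, and the log2 fold change was 0.24 (limma adjusted p = 0.56). Mrps16, Mrps22 and Mrps34 are mutated in human deficiencies of oxidative phosphorylation. Mrps22 had levels of 0.81, 0.80 and 0.70 in hearts 1, 2 and 4, against 0.75, 0.89 and 0.71 in spleens 1, 2 and 4, all 6 within a narrow range. Its log2 fold change was -0.014 with a 95% interval from -0.39 to 0.37. Mrps16 and Mrps34 had log2 fold changes of -0.07 and -0.09.

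Mrps5, a protein of the decoding region, had levels of -2.10, -2.19 and -1.75 in hearts 1, 2 and 4, against -1.53, -2.04 and -2.49 in spleens 1, 2 and 4. The tissues overlapped, and the log2 fold change was 0.009 with a 95% interval from -0.68 to 0.69. Mrps27, a protein of the pentatricopeptide repeat class, had a log2 fold change of -0.19 (interval from -0.74 to 0.36). Mrps36, which has been assigned to the oxoglutarate dehydrogenase complex rather than to the ribosome, had one of 0.25 and was counted in neither subunit.

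The S18 family has 3 nuclear genes in mammals, and their products lie at different places in the ribosome. Mrps18b was called, with the values above. Mrps18a, whose product sits in the large subunit, had levels of 2.52, 2.28 and 2.45 in hearts 1, 2 and 4, against 1.35, 1.75 and 2.27 in spleens 1, 2 and 4. Spleen 4 nearly reached heart 2, and the log2 fold change of 0.62 missed the threshold (limma adjusted p = 0.163). Mrps18c had a log2 fold change of 0.33 with overlapping tissues (limma adjusted p = 0.434). Whether the 3 differ from each other was not tested.

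Probe brightness also spanned a wide range, which does not rank abundance between genes. Of the 4 genes with the brightest probes, Mrpl33 had levels of 6.06, 5.84 and 6.13 in hearts 1, 2 and 4, against 5.29, 6.16 and 6.42 in spleens 1, 2 and 4, so that spleens held both the lowest and the highest value. Mrps21 and Mrpl20 had log2 fold changes of 0.39 and 0.365 and were not called, and Mrpl52 is described above. Of the 4 dimmest tested genes, Mrpl35 and Mrpl1 had log2 fold changes of 0.23 and -0.09, and Mrps5 and Mrps27 are given above. Mrpl21 (chr19:3292462-3292521, mm9) and the pseudogene Mrps36-ps1 (chr17:54005484-54005543, mm9) were not well above background on any of the 6 arrays, and no fold change is given for them.

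**Figure D3:**
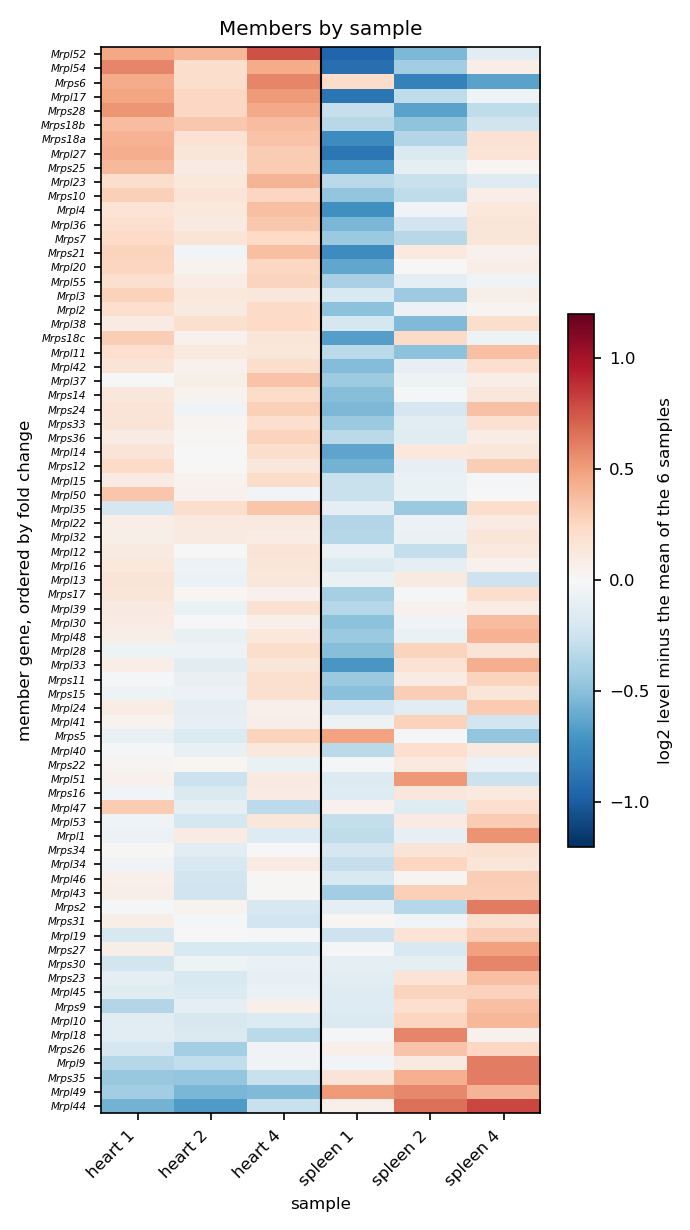
Log2 level minus the mean of the 6 samples (red above, blue below) for the 75 tested genes, in order of fold change from top to bottom, with heart samples in the 3 left columns and spleen samples in the 3 right columns. The spleen 1 column is blue over much of its length, the heart columns differ little from each other, and the 6 called genes stand at or near the ends.

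The spleens differed from each other more than the hearts did. The median SD of a gene was 0.12 over hearts and 0.31 over spleens, and the spleens had the larger SD in 70 of 75 genes (93.3%, against 84.1% of all tested genes). As a median deviation from the mean of the 6 samples, the family stood at 0.10, -0.003 and 0.14 in hearts 1, 2 and 4, against -0.32, -0.07 and 0.15 in spleens 1, 2 and 4. For all tested genes the same values were 0.08, 0.04 and 0.05 in hearts, against -0.17, -0.02 and 0.03 in spleens.

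Spleen 1 was the lowest of the 6 samples for 45 of 75 genes, and spleen 4 was the highest for 26. Spleen 4 was nearer to the mean of the hearts than to the mean of the other spleens in 51 of 75 genes (68%, against 49.3% of all tested genes). Spleen 1 also held the top summed levels of B cell (99.4), T and NK cell (64.1) and erythroid (191) markers, and spleen 4 the lowest neutrophil sum of the spleens (518). Their part in the spread was not tested. Without spleen 1 the family's median log2 fold change was 0.022, and without spleen 4 it was 0.288. Between heart 1 and spleen 4, which shared a slide, the median difference of the family was -0.066, with 33 of 75 genes above 0.

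Of the 21 genes with 2 tested probes, 17 had the same sign by both. The median size of the difference between the probes' log2 fold changes was 0.205, with 10 of 21 pairs under 0.2 and 3 over 0.5. The probe used was called in 2 genes and the other probe in 2, and 1 gene was called by both. In a fit over all tested probes, Mrps18b was called by both, with log2 fold changes of 0.71 and 0.87 (limma adjusted p = 0.0358 and 0.045). Mrpl49 was not: the probe used gave -0.996 (limma adjusted p = 0.0141), while the other, at chr19:6054680-6054739 (mm9), gave -0.07 (limma adjusted p = 0.85). On that other probe, hearts 1, 2 and 4 stood at 0.06, 0.02 and -0.05, against 0.07, 0.40 and -0.23 in spleens 1, 2 and 4, so the tissues overlapped. With the mean of both probes, Mrpl49 was not called.

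Mrpl15 and Mrpl41 were singled out after their values were seen. The dimmer probe of Mrpl15 was called higher, with levels of 2.09, 2.10 and 2.27 in hearts 1, 2 and 4, against 1.199, 1.45 and 1.35 in spleens 1, 2 and 4 (log2 fold change 0.82, limma adjusted p = 0.0262). The brighter probe, which stands for the gene here, gave 0.24 and was not called. For Mrpl41 the dimmer probe gave 0.85 and the brighter 0.012, and neither was called. Some probes covered more of the genome than their own 60 bases, and 3 of these are printed because they carry a called signal or stand for a gene whose probes disagree. They covered 9121, 149 and 783 bases of the genome (mm9). They are the probe of Mrps35 (chr6:147009999-147019119, plus strand), the dimmer probe of Mrps18b (chr17:36051313-36051461, minus strand) and the brighter probe of Mrpl15 (chr1:4766862-4767644, minus strand).
Mrps35: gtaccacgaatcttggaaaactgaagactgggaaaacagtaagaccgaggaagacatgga
Mrps18b: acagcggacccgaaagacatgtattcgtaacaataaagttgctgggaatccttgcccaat
Mrpl15: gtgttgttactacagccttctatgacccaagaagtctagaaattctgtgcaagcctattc

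**Figure D4:**
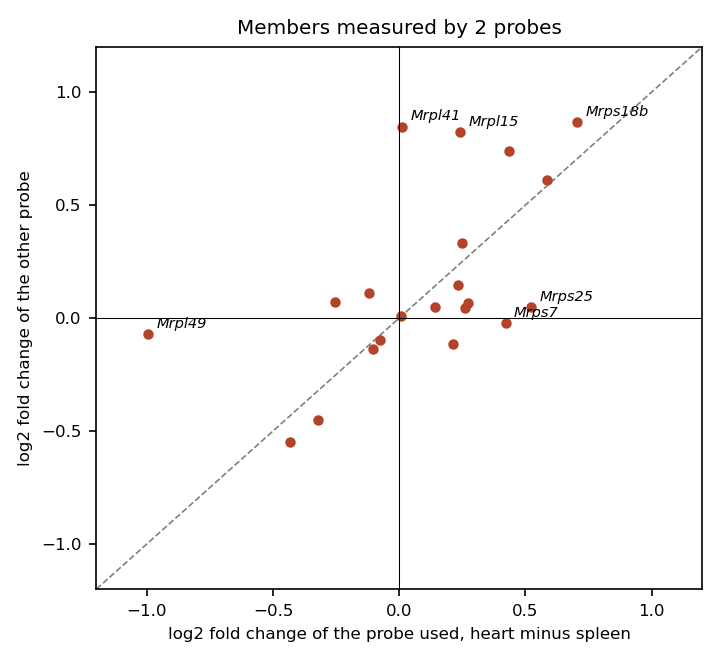
Log2 fold change, heart minus spleen, of the probe used (x axis) and of the other tested probe (y axis) for the 21 genes with 2 tested probes; the dashed line marks equal values and 6 genes are labelled. Mrpl49 lies at -0.996 by the probe used and -0.07 by the other, and Mrps18b at 0.71 and 0.87.

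Other genes serve the mitochondrial ribosome or its templates without carrying these names. Of 7 ribosomal subunits with other names, 0 were called by limma (0 also at an unadjusted p under 0.05), and the brightest, Aurkaip1, had a log2 fold change of 0.20. Of 24 genes for assembly and rRNA modification, 23 were tested. Of these, 2 rose (8.7%, against 9.04% of all tested genes) and 4 fell (17.4%, against 6.46%). With a signal well above background required on all 6 arrays, 4 fell as well (against 5.58% of all tested genes). Ybey, an rRNA endonuclease, had levels of -4.41, -3.69 and -4.60 in hearts 1, 2 and 4, against -1.90, -2.25 and -2.60 in spleens 1, 2 and 4. The tissues did not overlap, and its log2 fold change was -1.98 ± 0.31 (SE, n = 3 each, limma adjusted p = 0.0125). Mrm2, an rRNA methyltransferase, had a fitted log2 fold change of -2.02, and of -1.93 with dim arrays held at the detection floor. It was well above background on 1 of 3 hearts and passed the filter through the spleens alone, so its p is not given. Malsu1, a factor of large subunit assembly and the brightest gene of that list not called, had a log2 fold change of 0.235 (limma adjusted p = 0.521).

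Of 15 translation factors, 14 were tested and 1 fell (7.14%, against 6.46% of all tested genes), the initiation factor Mtif3. It had levels of -2.15, -2.26 and -1.70 in hearts 1, 2 and 4, against -0.79, -0.82 and -0.69 in spleens 1, 2 and 4, with no overlap and a log2 fold change of -1.27 ± 0.20 (SE, n = 3 each, limma adjusted p = 0.0137). The other initiation factor, Mtif2, the brightest of the list, had a log2 fold change of 0.06 and was not called. Of 17 mitochondrial tRNA synthetases, 16 were tested. Of these, 4 fell (25%, against 6.46% of all tested genes) and 0 rose (against 9.04%). At an unadjusted p under 0.05, 5 of the 16 differed in either direction, against 32% of all tested genes. Pars2, the prolyl enzyme, had levels of -3.40, -2.61 and -2.73 in hearts 1, 2 and 4, against -0.32, -0.84 and -1.01 in spleens 1, 2 and 4. The tissues did not overlap, and the log2 fold change was -2.19 ± 0.29 (SE, n = 3 each, limma adjusted p = 0.00819). Mars2, the methionyl enzyme, fell by 1.34 on the log2 scale (limma adjusted p = 0.0488), and Fars2, the brightest not called, had a log2 fold change of -0.02.

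Of 17 genes for mitochondrial DNA and its transcription, 3 fell (17.6%, against 6.46% of all tested genes). With a signal well above background required on all 6 arrays, 2 fell (against 5.58% of all tested genes). Mterf2, a member of the transcription termination factor family, was not well above background in any heart. It passed the filter through the spleens alone, so it could only be called lower, and its p is not given. Its mean level in hearts was at least 8.18-fold below its spleen mean. That bound sets the spleen mean against, for each heart array, the probe's own level or, if higher, the dimmest level that still counted as well above background. Mterf1a, of the same family, had levels of -1.61, -1.65 and -1.80 in hearts 1, 2 and 4, against 0.31, -0.25 and 0.01 in spleens 1, 2 and 4, with a log2 fold change of -1.71 ± 0.20 (SE, n = 3 each, limma adjusted p = 0.0055). Its tissues did not overlap. Ssbp1, which binds single-stranded mitochondrial DNA, was the brightest not called (log2 fold change 0.09). Of 9 regulators of mitochondrial gene programmes, 7 were tested and 0 were called by limma (1 at an unadjusted p under 0.05), and Esrra, the brightest, had a log2 fold change of 0.11.

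When each heart was left out in turn, Pars2 and Mterf1a were called in all 3 fits, Ybey and Mtif3 in 1, and Mrm2, Mars2 and Mterf2 in 0. With the slide as a fixed block, 0 genes of these 6 lists were called, Pars2 and Mterf1a included, and 92 of all tested genes were. That fit drew the tissue difference from heart 1 and spleen 4 alone. Mars2 was called in 9 of 21 alternative fits.

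**Figure D5:**
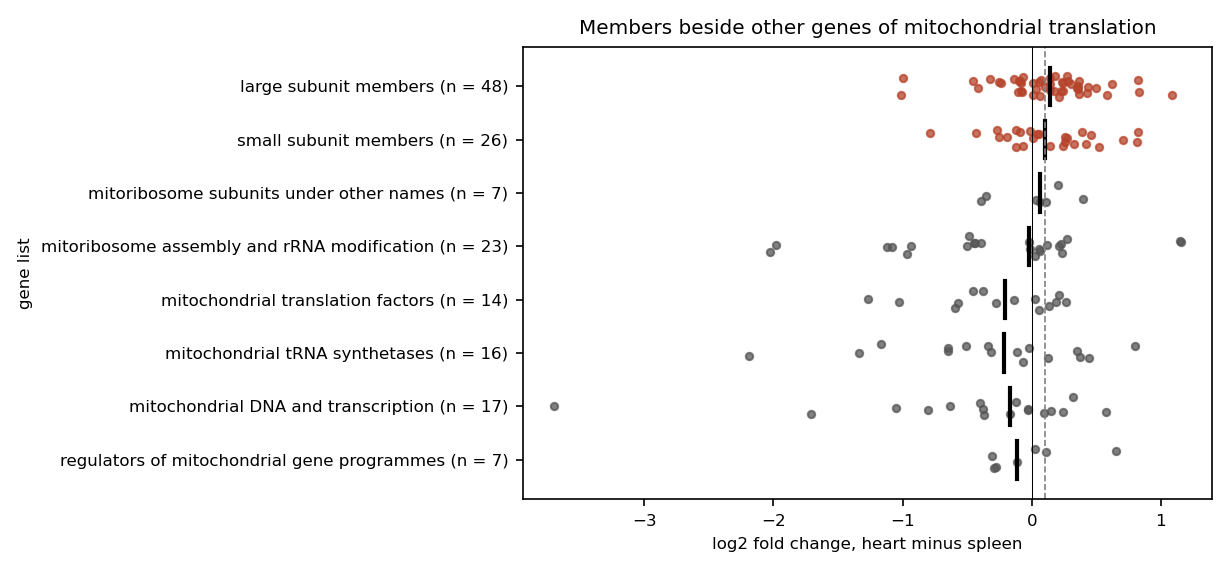
Log2 fold change, heart minus spleen, of each tested gene (points) in the large and small subunit families (red) and in 6 other lists of mitochondrial translation genes (grey), with the list median as a black bar and the median of all tested genes, 0.105, as a dashed line. Medians are 0.145 for large and 0.10 for small subunit genes, and -0.21 for translation factors and for tRNA synthetases.

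The median log2 fold changes of these lists were 0.07 for subunits with other names, -0.024 for assembly, -0.21 for translation factors, -0.21 for tRNA synthetases, -0.17 for mitochondrial DNA and transcription and -0.11 for regulators. Several of these signs depended on the processing. With array medians as the scale, the median was 0.091 for assembly and 0.002 for regulators. With quantile scaling it was -0.239 for subunits with other names and -0.207 for assembly. With the arrays of the earlier title date alone it was 0.019 for tRNA synthetases. With the mean of all tested probes it was 0.053 for regulators, with the gene names of the files 0.007 for assembly, and without heart 4 it was 0.011 for assembly and -0.007 for subunits with other names. The median for translation factors was below 0 in all 21 alternatives, as was that for mitochondrial DNA and transcription.

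A pair of further families was set beside the mitochondrial ribosomal proteins. Of 79 cytosolic ribosomal proteins, 0 were called by limma (1 at an unadjusted p under 0.05), with a median log2 fold change of 0.06 and a range from -0.24 to 0.655. Of 81 subunits of the respiratory chain and ATP synthase, 2 were called higher (2.47%, against 9.04% of all tested genes) and 1 lower (1.23%, against 6.46%). Their median was 0.28, and 71 of 81 were above 0 (87.7%, against 58.4% of all tested genes). Spleen 1 stood at -0.32 for mitochondrial ribosomal proteins, at -0.05 for cytosolic ribosomal proteins and at -0.50 for respiratory chain subunits, as the median deviation from the mean of the 6 samples. The differences between the families were not tested.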

How the data were processed

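The deposited scanner files hold a linear intensity per spot, made by the authors with Agilent Feature Extraction (version 10.7.3.1), per the submitters' processing notes and the file headers. The processed intensity is background-corrected and not scaled between arrays. The deposited matrix of values holds log2 values whose baseline per probe is unknown, so only differences were used, as an alternative (r between 0.9998 and 1 with quantile-scaled scanner values over 15 pairs of arrays, column medians 0). Direction and scale were settled by that match.

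Log2 processed intensity was taken minus the 75th percentile over non-control spots that were not outliers, and spots of 1 probe were averaged. The number of arrays, 3 per tissue, limits the precision. Testing a probe required a signal well above background on every array of 1 tissue or of both. The brightest tested probe stood for a gene. Names came from the files or, by accession, from RefSeq (GRCm38, 26412 probes), and all 75 tested family names matched RefSeq. Coordinates of probes are mm9, those of promoters GRCm38.p6. Exon positions were not analysed here.

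Heart was compared with spleen by a two-sided test with limma 3.58.1 (lmFit, eBayes, tissue only, R 4.3.3), with data.table (version 1.17.8). The fit was also run on simulated data with equal spread in both tissues and with planted changes larger than any in the family. That run did not check the fit under unequal spread or for changes as small as those of the family. Figures used matplotlib 3.10.9. Alternatives were other background, scaling, filter, probe, block, prior and weight choices, the deposited matrix, and each sample left out. Marker sums are sums of linear levels. The values of 1 marker gene are not reported here.

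Genes named are the called ones, the 4 brightest and 4 dimmest, the untested, those on a list of known roles and, per other list, the 2 called genes with the largest change and the brightest not called. Members and lists were chosen with earlier results of these data known.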

Additional observations from a re-analysis of the deposited data

How the results depend on the processing

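Precision was limited by the 3 arrays per tissue. With quantile scaling 1 gene was called higher and 4 lower (6.67%, against 15.3% of all tested genes), and the family's median log2 fold change was -0.065. With the deposited table the counts were also 1 and 4, and the median was -0.06. In both, Mrpl52 was the gene called higher, Mrps28 and Mrps18b were not called, and Mrps26 was called lower. With array medians, 0 were called higher and 0 lower, with 2024 calls over all genes, and the median of all genes was 0.22 instead of 0.105. Without the filter on dim probes, 0 were called higher and 1 lower, with 1476 calls over all genes. With the slide as a fixed block, 0 and 0 were called, the median was -0.066 and 92 genes were called in all. That fit drew the tissue difference from heart 1 and spleen 4 alone, the only heart and spleen on a shared slide. The arrays of the earlier date in the titles gave 0 higher and 1 lower, and a weight per tissue left 1 lower. With a sample left out, the counts ranged from 0 to 8 higher and from 0 to 3 lower, the median from 0.022 to 0.288, and all calls from 433 to 4024. Under the other alternatives these counts stayed within 1.5 times.

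With the replicate number as a block, 0 were called higher and 0 lower, and 1512 of all genes. Same-numbered samples did not deviate together (r = -0.053, 0.04 and 0.009 for numbers 1, 2 and 4), which gives no sign of pairing, and the labels do not say whether they share an animal. Both samples numbered 4 carry the later title date, and those numbered 1 and 2 carry the earlier one.

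Among the genes named, signs turned only in those not called. With quantile scaling the log2 fold changes were -0.073 for Mrpl12, -0.033 for Mrpl20, -0.24 for Mrpl24, -0.026 for Mrpl32, -0.245 for Mrpl33, -0.193 for Mrpl40, -0.209 for Mrpl41, -0.016 for Mrps12 and -0.005 for Mrps21. With the deposited table they were 0.002 for Mrpl1, -0.069 for Mrpl12, -0.03 for Mrpl20, -0.234 for Mrpl24, -0.024 for Mrpl32, -0.245 for Mrpl33, -0.187 for Mrpl40, -0.203 for Mrpl41, -0.013 for Mrps12 and -0.004 for Mrps21. With array medians they were 0.029 for Mrpl1, 0.048 for Mrps16, 0.101 for Mrps22 and 0.027 for Mrps34. With the slide as a block they were -0.154 for Mrpl11, -0.014 for Mrpl12, -0.216 for Mrpl24, -0.067 for Mrpl32, -0.36 for Mrpl33, -0.417 for Mrpl35, -0.13 for Mrpl40, -0.066 for Mrps12 and 0.105 for Mrps22. On the earlier date they were 0.218 for Mrpl1, -0.129 for Mrpl41, 0.045 for Mrps27 and -0.359 for Mrps5. With normexp background, Mrpl40 had -0.005. With a sample left out, the range was -0.26 to 0.16 for Mrpl1, -0.07 to 0.198 for Mrpl24, -0.277 to 0.288 for Mrpl33, -0.15 to 0.108 for Mrpl40, -0.098 to 0.153 for Mrpl41, -0.161 to 0.004 for Mrps16, -0.052 to 0.04 for Mrps22, -0.337 to 0.004 for Mrps27 and -0.226 to 0.252 for Mrps5. The cause of these shifts was not tested.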
